A study of Mus musculus with 8 samples.

Results

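The claudins of the nephron are described here through 10 genes, Cldn1, Cldn2, Cldn3, Cldn4, Cldn6, Cldn7, Cldn8, Cldn10, Cldn16 and Cldn19, taken by gene symbol from the 35275 genes of a count table of mouse renal cortex. Each symbol matched 1 row. All 10 passed the filter on low counts, which left 15028 genes. The table covers 8 mice at postnatal day 7, with 4 controls described as Cre- and 4 mutants of a Six2-Tfam knockout line. The labels do not give the Tfam alleles of the controls, and Cre without loss of Tfam was not among the groups, so effects of Tfam loss and of the Cre transgene cannot be told apart. Six2 drives the recombinase in progenitors of the nephron, whereas vessels, immune cells, stroma and the collecting duct have other origins. The Tfam protein packages mitochondrial DNA and is needed for its transcription.

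Claudins are proteins that span the membrane and form the strands of tight junctions. Some make pores between neighbouring cells that pass chosen ions and water, and others seal the junction. Each nephron segment carries its own set, so the claudins present decide whether a segment lets sodium, calcium, magnesium or chloride pass beside the cells. The proximal tubule is leaky, the thick ascending limb is selective for cations, and the collecting duct is tight.

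Counted reads per library ranged from 15597762 to 20417550, and expression is given below as CPM, counts divided by the effective library size. Tfam lay between 48.7 and 54.8 CPM in the controls and between 26.5 and 27.6 CPM in the mutants. Libraries of the mutants Mut1393, Mut1453 and Mut1454 held 4294 to 4915 counts of Y-linked genes, against 0 to 3 in the controls and 27 in Mut1819, so a sex difference moves with the groups. Calls of the genes and lists named were also made with a term for Y-linked libraries, and those lost with it are given beside the result. No control library was Y-linked, so with this term the comparison rests on Mut1819 alone against the 4 controls. Where a call was lost, sex and the smaller number of mutants cannot be told apart. Fewer of all genes were called with this term too, so lost calls were not particular to the lists. Each tubule segment was checked with its markers. Of all genes tested, 23.5% were called higher and 22.7% lower in mutants, the shares to set beside the marker counts here and below. Summed proximal tubule markers (12 of 12 fell) ranged from 5562 to 8047 CPM in controls and 783 to 1532 CPM in mutants. Those of the thick ascending limb (5 of 8 fell, 1 rose) ranged from 2310 to 2731 and from 1215 to 1550 CPM, and those of the distal convoluted tubule (5 of 6 fell) from 869.5 to 1149 and from 303 to 513.5 CPM. Thin limb markers of the loop of Henle (2 of 5 rose, 1 fell) ranged from 172 to 266 and from 155 to 178 CPM, which overlapped. Of the 2, Akr1b3 did not pass with the Y-linked term (log2 fold change 0.31, against 0.32). Principal cell markers (5 of 8 tested fell) ranged from 648 to 844 and from 442 to 726 CPM. Intercalated cell markers fell in 8 of 8, podocyte markers in 7 of 8 and stromal markers in 1 of 6, and leukocyte markers rose in 5 of 5. With the Y-linked term, 3 of 8 principal cell markers fell, the stromal call was lost, and 4 of 5 leukocyte markers rose. The part of these shifts in the claudin changes was not tested. In bulk tissue, fewer cells of a type and less RNA per cell cannot be told apart.

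Claudin mRNAs moved in both directions. Cldn4, Cldn3, Cldn7 and Cldn1 rose in mutants, Cldn2, Cldn16, Cldn10, Cldn8 and Cldn6 fell, and Cldn19 did not pass the test. By edgeR's quasi-likelihood test at an adjusted p of 0.05, 9 of 10 changed, against 46.2% of all genes tested (23.5% higher and 22.7% lower). In 8 of the 10 the mutants and controls did not overlap, against 43% of all genes tested. The median size of the log2 fold change, sign left aside, was 0.98 over the 10 claudins and 0.24 over all genes tested. With signs kept, the medians were -0.09 and -0.000783. The claudins were chosen with earlier results of these data known, so these contrasts with all genes are descriptions without a test.

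**Figure D1:**
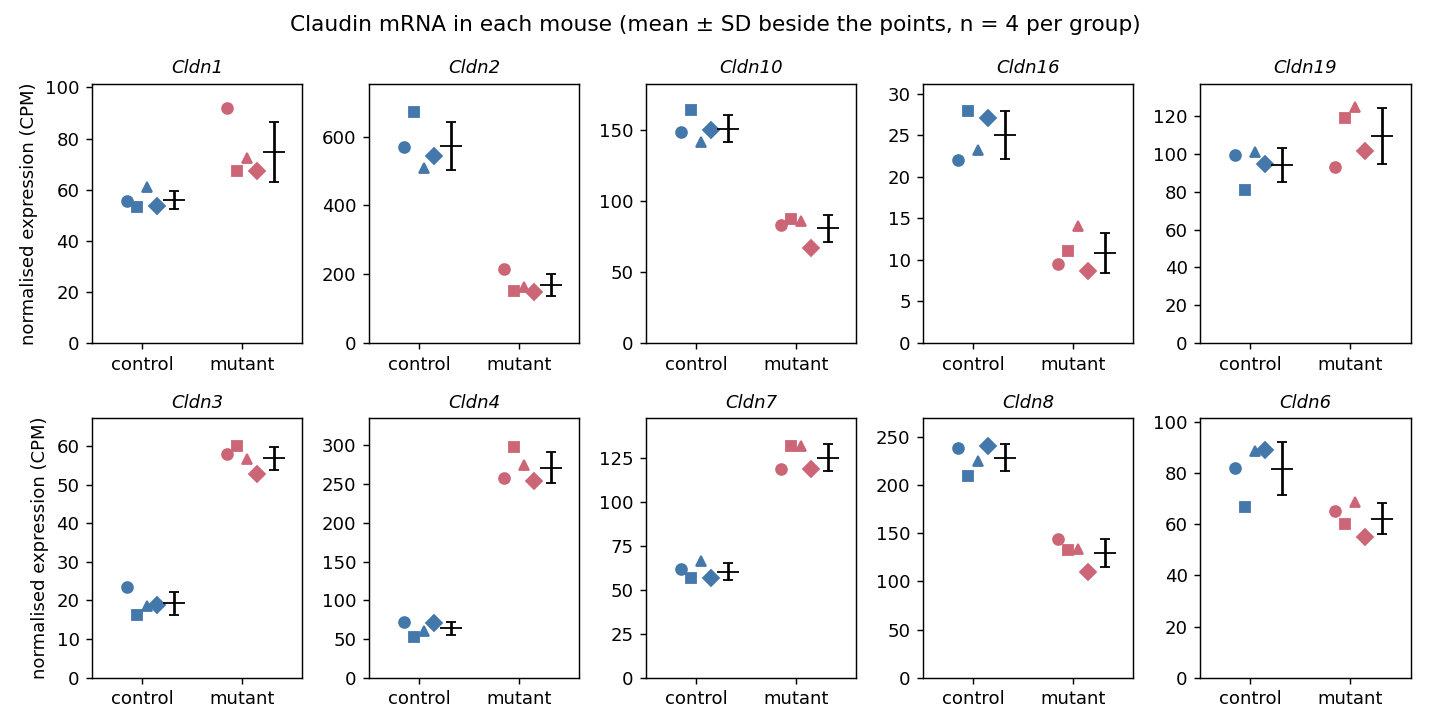
Normalised expression (CPM, axes from 0) of 10 claudins in 4 control (blue) and 4 mutant (red) mice. Marker shapes are the mice in the order Con1391, Con1452, Con1822, Con1823 and Mut1393, Mut1453, Mut1454, Mut1819, and the black bar is the mean with its SD. The groups overlap for Cldn19 and Cldn6 alone.

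**Figure D2:**
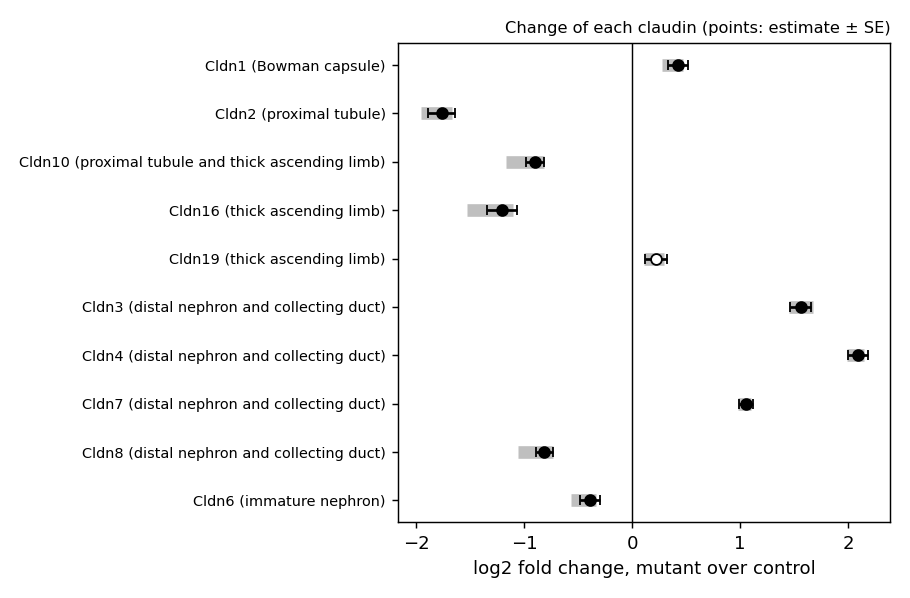
Log2 fold change, mutant over control, of each claudin with its SE from edgeR (filled points passed the test, the open point Cldn19 did not). Grey bands span the 17 alternative settings. Estimates run from -1.77 for Cldn2 to 2.09 for Cldn4.

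The proximal tubule claudin Cldn2, which forms a pore for sodium and water, was the most abundant claudin of the controls and lost most of its mRNA in mutants. Its level was 569, 671, 509 and 545 CPM in Con1391, Con1452, Con1822 and Con1823, against 215, 150.0, 162 and 147 CPM in mutants Mut1393, Mut1453, Mut1454 and Mut1819. Every mutant lay below every control, with Mut1393 the highest of the mutants. The means were 574 ± 69.8 and 169 ± 31.5 CPM (SD, n = 4 each), a fall of 70.6% and a log2 fold change of -1.77 (SE 0.12, edgeR adjusted p = 4.66e-07). Cldn2 (ENSMUSG00000047230, mm10 chromosome X, 139800828 to 139811386, plus strand) is X-linked. Mut1819, the mutant with few Y-linked counts and 13831 Xist counts, had the lowest level of the 4. It was the lowest mutant for 8 of the 10 claudins, so this was not particular to Cldn2. Mouse numbers fell into ranges of 1300 (Con1391, Mut1393), 1400 (Con1452, Mut1453, Mut1454) and 1800 (Con1822, Con1823, Mut1819), which no label explains. Within them the log2 ratio was -1.40, -2.10 and -1.84. Here and for the claudins below, such ratios are descriptions from few mice, and in the 1800 range Mut1819 was the only mutant.

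Cldn10 makes an anion-selective form in the proximal tubule and a cation-selective form in the thick ascending limb from alternative first exons, which counts per gene do not separate. The gene (ENSMUSG00000022132, chromosome 14, 118787908 to 118875489, plus strand) had 149, 165, 142 and 150.0 CPM in the controls and 83.5, 87.4, 85.7 and 67.1 CPM in the mutants. The groups did not overlap, and each kept within a narrow range. The means of 151 ± 9.57 and 80.9 ± 9.36 CPM gave a log2 fold change of -0.90 (SE 0.08, edgeR adjusted p = 3.56e-06). Within the ranges of the mouse numbers the log2 ratio was -0.84, -0.93 and -1.12. Relative to Cldn2, Cldn10 fell less. The ratio of their FPKM values, which are per length, was 3.98 ± 0.235 Cldn2 per Cldn10 in controls and 2.21 ± 0.396 in mutants, with no overlap.

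The partners Cldn16 and Cldn19, known from the thick ascending limb, parted in this bulk tissue. Together these claudins form the channel that lets magnesium and calcium pass beside the cells, and mutations in either gene cause renal magnesium wasting in people. Cldn16 (ENSMUSG00000038148, chromosome 16, 26463135 to 26482765, plus strand) had 22.0, 27.9, 23.2 and 27.1 CPM in the controls and 9.5, 11.1, 14.0 and 8.67 CPM in the mutants. The groups were apart, with Mut1454 nearest to the controls. The means were 25.0 ± 2.88 and 10.8 ± 2.37 CPM, a log2 fold change of -1.21 (SE 0.14, edgeR adjusted p = 2.65e-05), and -1.21, -1.16 and -1.53 within the ranges of the mouse numbers.

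Cldn19 (ENSMUSG00000066058, chromosome 4, 119255414 to 119262438, plus strand) had 99.7, 81.0, 101 and 95.04 CPM in the controls and 93.1, 119, 125 and 102 CPM in the mutants. The groups overlapped, since Mut1393 lay below 3 of the 4 controls. The log2 fold change was 0.22 (SE 0.10, edgeR adjusted p = 0.0875), from means of 94.3 ± 9.23 and 110 ± 14.9 CPM. Without Mut1393 it was 0.29 and passed (edgeR adjusted p = 0.0196). Within the ranges of the mouse numbers the log2 ratio was -0.10, 0.59 and 0.05. On the FPKM scale there were 0.529, 0.826, 0.549 and 0.683 Cldn16 per Cldn19 in controls, against 0.245, 0.224, 0.269 and 0.204 in mutants. The lowest control ratio was thus above the highest mutant ratio, and the mean ratio in mutants was 0.364 of that in controls.

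The upstream window of Cldn16 is printed here with that of Cldn2, as the claudins that fell most, and those of Cldn3 and Cldn4 stand with their values. Each is the 250 bases before the transcription start on RefSeq's GRCm38.p6, the assembly that mm10 names, written on the gene's strand with matches to the motifs searched in capitals.
Cldn16 (chr16:26462885-26463134, plus strand): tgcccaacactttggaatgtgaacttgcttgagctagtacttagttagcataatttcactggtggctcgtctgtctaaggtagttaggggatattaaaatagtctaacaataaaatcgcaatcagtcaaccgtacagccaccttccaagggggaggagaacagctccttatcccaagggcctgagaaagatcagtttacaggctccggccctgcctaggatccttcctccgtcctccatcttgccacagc
Cldn2 (chrX:139800558-139800807, plus strand): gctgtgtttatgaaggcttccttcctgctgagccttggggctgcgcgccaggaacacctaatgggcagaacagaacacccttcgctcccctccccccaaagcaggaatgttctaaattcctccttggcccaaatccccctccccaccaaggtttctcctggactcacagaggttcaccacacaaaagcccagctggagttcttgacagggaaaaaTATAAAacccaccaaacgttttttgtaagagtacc
On both strands, 8 motifs were searched, chosen with the expression results known: the E-box CACCTG bound by Snail-type repressors, the GC box GGGCGG, the AP-1 motif TGANTCA, the TATA box TATAAA, a grainyhead-like motif AACCNGTT, an ATF4 motif TGATGNAAT, a STAT motif TTCNNNGAA and a GATA motif AGATAAG. No matches overlapped in the 4 windows printed. Of the 10 claudins, 9 matched the RefSeq promoter table by symbol, without Cldn8. The Cldn2 window holds a TATA box whose first base lies at -35, which 12.4% of 32817 promoter windows of this length hold. The Cldn16 window holds none of the 8, which says only that these letters are not in it.

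The distal claudins moved apart too, with Cldn3, Cldn4 and Cldn7 up and Cldn8 down. These claudins are known from the distal tubule and collecting duct, where Cldn4 and Cldn8 together form a pathway for chloride, Cldn3 seals, and Cldn7 lies mainly on the basolateral membrane and is needed for salt retention in mice. Cldn4 (ENSMUSG00000047501, chromosome 5, 134945119 to 134946934, minus strand) had 71.4, 52.9, 60.1 and 70.0 CPM in the controls and 258, 298, 274 and 253 CPM in the mutants. The lowest mutant was far above the highest control. The means were 63.6 ± 8.73 and 271 ± 20.04 CPM, a ratio of 4.26 and a log2 fold change of 2.09 (SE 0.10, edgeR adjusted p = 2.26e-08). Within the ranges of the mouse numbers the log2 ratio was 1.85, 2.43 and 1.97.

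Cldn3 (ENSMUSG00000070473, chromosome 5, 134986214 to 134987472, plus strand) lies 39.279 kb from Cldn4 and is read away from it. It had 23.5, 16.3, 18.7 and 18.7 CPM in the controls and 57.9, 60.0, 56.6 and 52.8 CPM in the mutants. The groups were apart and the mutants differed little among themselves. The mean of 19.3 ± 3.02 CPM became 56.8 ± 3.04 CPM (log2 fold change 1.56, SE 0.10, edgeR adjusted p = 1.67e-07), with 1.30, 1.84 and 1.5 within the ranges of the mouse numbers. Although both genes rose, their proportion shifted. There were 2.31 ± 0.207 Cldn4 per Cldn3 (FPKM) in controls and 3.32 ± 0.151 in mutants, with no overlap. The third gene of this cluster, Cldn13, 29.592 kb from Cldn4, summed to 0 counts in controls and 3 in mutants, too few for a comparison.

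The windows before these neighbouring genes that rose are given with their motifs.
Cldn4 (chr5:134946935-134947184, minus strand): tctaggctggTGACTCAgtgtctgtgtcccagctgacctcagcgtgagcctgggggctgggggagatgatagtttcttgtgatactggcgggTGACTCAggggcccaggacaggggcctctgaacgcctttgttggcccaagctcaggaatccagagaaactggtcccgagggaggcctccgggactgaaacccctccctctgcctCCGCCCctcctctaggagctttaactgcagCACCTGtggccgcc
Cldn3 (chr5:134985964-134986213, plus strand): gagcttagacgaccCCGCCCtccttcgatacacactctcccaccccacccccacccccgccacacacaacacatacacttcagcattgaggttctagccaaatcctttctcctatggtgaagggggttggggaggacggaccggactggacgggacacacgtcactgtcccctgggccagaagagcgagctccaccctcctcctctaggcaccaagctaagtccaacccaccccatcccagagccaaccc
The Cldn4 window holds the AP-1 motif at -240 and at -158, a GC box at -44 and the E-box at -14, counted at the first base of each match. AP-1 matches occur in 6.75%, GC boxes in 32.7% and the E-box in 17.2% of all windows. The Cldn3 window holds a GC box at -236 and none of the other 7 motifs. A match is a description of the letters and not a site.

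Cldn7 (ENSMUSG00000018569, chromosome 11, 69964779 to 69967885, plus strand) had 61.8, 57.0, 66.5 and 56.7 CPM in the controls and 119, 132, 132 and 119 CPM in the mutants. The groups were apart with a tight spread in each. The mean went from 60.5 ± 4.63 to 125 ± 7.51 CPM, a ratio of 2.07 and a log2 fold change of 1.05 (SE 0.07, edgeR adjusted p = 2.07e-07). Within the ranges of the mouse numbers the log2 ratio was 0.94, 1.21 and 0.95.

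Cldn8 (ENSMUSG00000050520, chromosome 16, 88560828 to 88563183, minus strand) went the other way. It had 238, 209.8, 225 and 240.5 CPM in the controls and 144, 133, 133 and 109.6 CPM in the mutants. No mutant reached the lowest control, and Mut1819 was lowest. The mean fell from 228.5 ± 14.2 to 129.9 ± 14.5 CPM (log2 fold change -0.81, SE 0.08, edgeR adjusted p = 7.20e-06), with -0.73, -0.66 and -1.09 within the ranges of the mouse numbers. The FPKM ratio of Cldn4 to its partner Cldn8 was 0.390, 0.329, 0.348 and 0.379 in controls, against 2.33, 2.92, 2.68 and 3.01 in mutants. Cldn8 thus exceeded Cldn4 in every control, and Cldn4 exceeded Cldn8 in every mutant. The mean ratio was 7.57 times higher in mutants, and for Cldn7 over Cldn8 it was 3.67 times higher.

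Of 9 tubular injury genes listed, 9 rose (8 with the Y-linked term), at a median of 1.45 on the log2 scale, and their sum went from a range of 1519 to 1658 CPM in controls to 3121 to 3475 CPM in mutants. Among all genes tested, 23.5% rose without that term. Lcn2, which encodes neutrophil gelatinase-associated lipocalin, rose by 5.03 and Vcam1, an adhesion receptor, by 1.45 on the log2 scale. Sox9, a transcription factor of tubular repair, rose by 2.56. The claudins were not tested against these genes. The part of the injury genes in the claudin changes was not tested. Urothelium also carries Cldn3, Cldn4 and Cldn7. Its 5 markers summed to 3.96 to 15.2 CPM in controls and 3.12 to 6.24 CPM in mutants, and neither of the 2 tested passed. Upk1a averaged 4.37 and 2.98 CPM, Upk1b 1.75 and 0.689 CPM and Krt5 0.237 and 0.0632 CPM. Single mice weighed on these means. Upk1b was 4.42 CPM in Con1391 and 0.30 to 1.57 CPM in the other controls. In mutants it was 2.10 CPM in Mut1393 and 0.11 to 0.405 CPM in the others. Con1391 was also the highest control for Upk1a (6.81 CPM) and Krt5 (0.757 CPM). The part of urothelium in these levels was not tested.

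Of the remaining claudins, Cldn1 rose and Cldn6 fell, both by little. Cldn1, known in the kidney from the parietal cells of Bowman's capsule, lies on chromosome 16 (ENSMUSG00000022512, 26356642 to 26371841, minus strand). It had 55.5, 53.2, 60.9 and 53.5 CPM in the controls and 92.0, 67.4, 72.2 and 67.5 CPM in the mutants. The groups did not overlap, and Mut1393 stood above the other mutants. The log2 fold change was 0.42 (SE 0.10, edgeR adjusted p = 0.00353) from means of 55.8 ± 3.56 and 74.8 ± 11.7 CPM, and 0.73, 0.39 and 0.24 within the ranges of the mouse numbers. When Y-linked libraries had their own term it was 0.27 and did not pass (edgeR adjusted p = 0.198), nor did Mut1819 alone against the controls (0.27, edgeR adjusted p = 0.0906). Cldn1 lies 91.293 kb from Cldn16 and is read away from it, and the neighbours moved in opposite directions. There were 0.739 ± 0.120 Cldn1 per Cldn16 (FPKM) in controls and 2.34 ± 0.654 in mutants.

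Cldn6, a claudin of embryonic and neonatal epithelia (ENSMUSG00000023906, chromosome 17, 23679249 to 23682446, plus strand), had 82.0, 66.9, 88.7 and 89.1 CPM in the controls and 65.0, 60.1, 68.8 and 55.0 CPM in the mutants. The groups overlapped through Con1452, which lay below Mut1454. The log2 fold change was -0.39 (SE 0.10, edgeR adjusted p = 0.00529), from means of 81.7 ± 10.4 and 62.2 ± 5.99 CPM. Within the ranges of the mouse numbers it was -0.34, -0.06 and -0.69. Markers of nephron progenitors and the early nephron (1 of 6 tested rose and 1 fell) summed to 154 to 214 CPM in controls and 162 to 209 CPM in mutants. Six2 itself averaged 0.0775 and 0.551 CPM and was under the filter. Its counts were 3, 0, 0 and 2 in controls and 15, 9, 6 and 12 in mutants, low but without overlap in CPM. Cldn9, the neighbour 137 bases away on the other strand, averaged 5.06 ± 0.949 and 4.06 ± 0.846 CPM and did not pass (log2 fold change -0.31, edgeR adjusted p = 0.201).

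On a per-length scale the order of the claudins changed. In controls, mean FPKM ran from Cldn2 (408 ± 35.1) through Cldn10 (102 ± 2.77), Cldn8 (94.5 ± 8.10), Cldn7 (71.6 ± 7.73), Cldn6 (52.9 ± 8.21), Cldn19 (36.1 ± 4.70), Cldn4 (34.3 ± 5.31), Cldn16 (22.9 ± 2.06) and Cldn1 (16.8 ± 1.6) to Cldn3 (15.0 ± 2.63). Of neighbours in that order, Cldn19 and Cldn4, and Cldn1 and Cldn3, had overlapping ranges. In mutants it ran from Cldn7 (156 ± 7.12) and Cldn4 (154 ± 9.82) through Cldn2 (127 ± 23.7), Cldn10 (57.7 ± 5.84), Cldn8 (56.5 ± 5.75), Cldn3 (46.2 ± 2.03), Cldn19 (44.1 ± 5.40), Cldn6 (42.3 ± 3.44) and Cldn1 (23.6 ± 3.71) to Cldn16 (10.4 ± 2.09). There the ranges overlapped between Cldn7 and Cldn4, Cldn4 and Cldn2, Cldn10 and Cldn8, Cldn3 and Cldn19, and Cldn19 and Cldn6. The order depends on the gene lengths behind the FPKM, 824 bases for Cldn7, 1809 for Cldn4 and 1363 for Cldn2. In CPM the mutant means were 271 for Cldn4, 169 for Cldn2 and 125 for Cldn7, so Cldn7 was not first.

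The 10 claudins summed to 855 ± 14.1 FPKM in controls and 717 ± 36.0 FPKM in mutants. FPKM denominators include mitochondrial reads, which were 3.88 to 9.28% of counts in controls and 1.15 to 1.84% in mutants. Shares of the claudin sum do not depend on that denominator, though they do depend on the gene lengths used. Cldn2 made up 47.1, 53.2, 44.7 and 46.1% of the sum in controls, against 21.7, 15.3, 16.5 and 17.1% in mutants. Cldn4 went from 4.01 ± 0.613 to 21.4 ± 1.44%, and Cldn7 from 8.38 ± 0.942 to 21.8 ± 1.31%. Cldn3 went from 1.75 ± 0.290 to 6.45 ± 0.211%. These shares must add up, so a lower share of Cldn2 raises the others. The CPM above do not depend on the claudin sum, but they are relative to the effective library size. For Cldn6 the share was 6.20 ± 1.013 and 5.90 ± 0.324%, with overlapping groups. That difference of -0.305 percentage points ran from -0.773 without Con1452 to -0.0227 without Con1822.

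**Figure D3:**
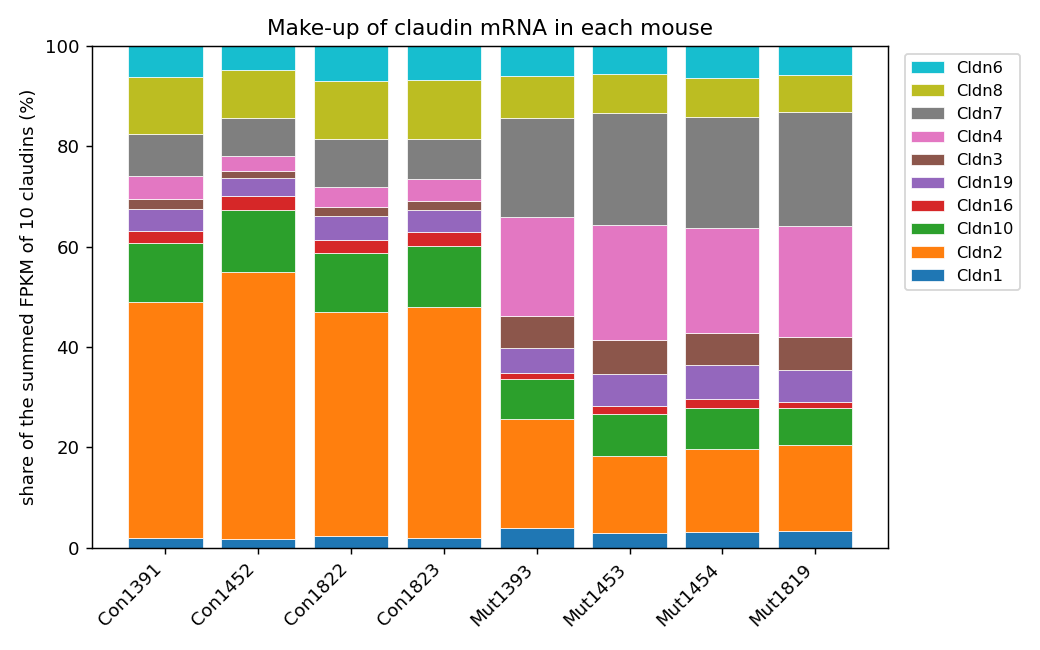
Share (%) of each claudin in the summed FPKM of the 10 claudins, 1 bar per mouse. Cldn2 (orange) takes 44.7 to 53.2% in the 4 controls and 15.3 to 21.7% in the 4 mutants, while Cldn4 (pink), Cldn7 (grey) and Cldn3 (brown) take more in the mutants.

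Set beside the markers of its segment, a claudin could move with them or apart from them. Cldn2 fell less than the summed proximal tubule markers. Their median log2 fold change was -2.93, from the glucose transporter Slc5a2 (-4.05) to the bicarbonate transporter Slc4a4 (-1.72), which was close to that of Cldn2. The log2 ratio of Cldn2 to their summed CPM was -3.51 ± 0.0577 in controls against -2.58 ± 0.185 in mutants, 0.94 higher without overlap. Against the thick limb markers, Cldn10 had log2 ratios of -4.05 ± 0.0811 and -4.18 ± 0.0251 in overlapping ranges. Set against the proximal markers instead, it was 1.80 higher in mutants. Cldn16 was 0.45 lower against the thick limb markers, with overlap, and Cldn19 was 0.99 higher without overlap. Among those markers, the uromodulin gene Umod fell by 1.26 and the cotransporter gene Slc12a1 by 0.65, and the prostaglandin receptor gene Ptger3 rose by 1.68. Against the principal cell markers, Cldn4 was 2.32, Cldn3 1.79 and Cldn7 1.28 higher and Cldn8 0.59 lower in mutants, each without overlap. Against the distal convoluted tubule markers, Cldn8 went the other way, with log2 ratios of -2.11 ± 0.220 in controls and -1.65 ± 0.233 in mutants that overlapped. The sodium channel subunit Scnn1b fell by 0.78 and Scnn1g by 0.63, beside a fall of 0.81 for Cldn8. The water channel Aqp2, the most abundant principal cell marker, had 206 ± 82.2 CPM in controls and 277 ± 98.6 CPM in mutants. Aqp2 thus weighed most in the principal cell sum, and the ratios to that sum lean on it. Its log2 fold change was 0.42 (edgeR adjusted p = 0.233), or -0.44 with the Y-linked term.

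**Figure D4:**
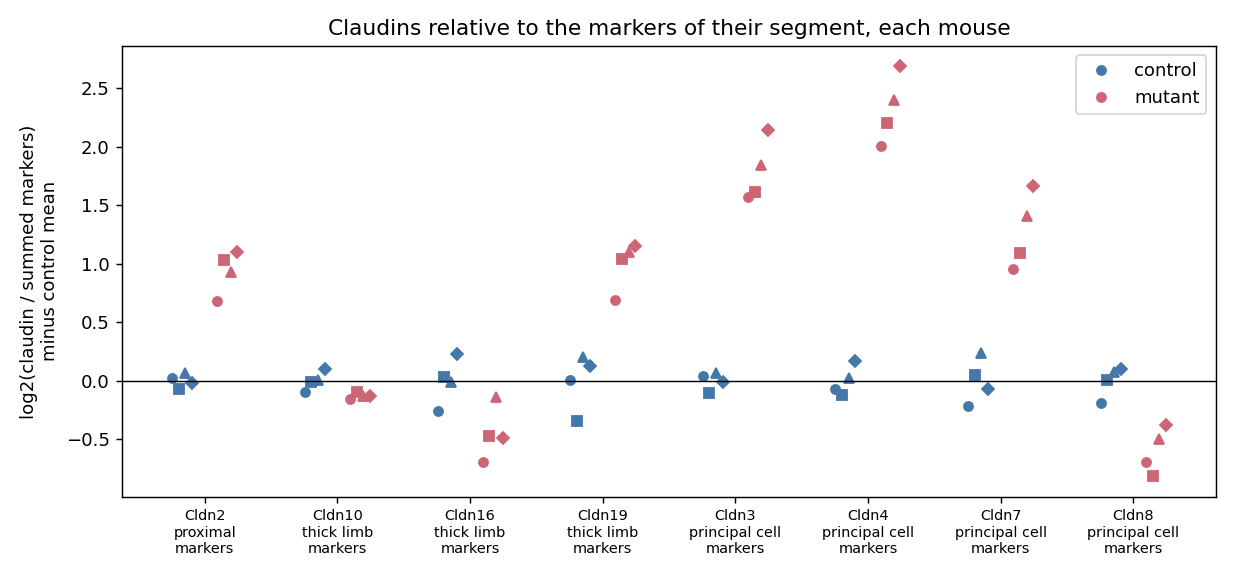
Log2 ratio of each claudin to the summed CPM of its segment's markers in each mouse, minus the control mean (blue controls, red mutants, shapes in the order of mice used for the levels). Cldn4, Cldn3 and Cldn7 lie highest above 0 in mutants, Cldn8 lies below 0 in the 4 mutants, and Cldn10 stays near 0.

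Genes of the proteins that anchor claudins went both ways. Of 24 genes for tight junction scaffolds and partners, 6 rose, 7 fell and 11 did not pass (median log2 fold change 0.05). In the same fit, 46.2% of all genes were called, and fewer of all genes were called once the Y-linked term was added. With the Y-linked term, 3 rose and 4 fell. Tjp1, which encodes the scaffold that binds claudin tails, went from 245 ± 16.2 to 217 ± 10.7 CPM (log2 fold change -0.18, edgeR adjusted p = 0.0414, or 0.351 with the Y-linked term). Its relative Tjp3 (-0.03) and occludin, Ocln (0.06), did not pass. The angulins, which recruit proteins to corners where 3 cells meet, are also in this list. Lsr rose by 0.67 and Ildr1 by 0.76, and Ildr2 fell by 1.02.

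Of 11 genes for adherens junctions and for partners of Cldn7, 9 rose, 1 fell and 1 did not pass (median log2 fold change 0.30). Among all genes tested, 23.5% rose and 22.7% fell. With the Y-linked term, 4 rose and 1 fell. Epcam, whose protein binds Cldn7, rose by 0.26 (edgeR adjusted p = 0.00946, or 0.304 with that term), and the protease St14, which cleaves EpCAM, rose by 0.80. The protease inhibitor Spint2 rose by 0.55. The kidney cadherin gene Cdh16 fell by 0.60.

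Genes for magnesium and calcium handling fell for the most part, some of them also thick limb or distal tubule markers above. Of 20 genes for magnesium and calcium handling in the loop and distal tubule, 15 fell and 5 did not pass (median log2 fold change -0.76), and 17 fell with the Y-linked term. Among all genes tested, 22.7% fell and 23.5% rose without that term, the shares also for the transcription factors below. Trpv5, a calcium channel gene, had 0.25 and did not pass. Egf, which stimulates magnesium uptake in the distal tubule, averaged 56.9 ± 9.62 CPM in controls and 3.54 ± 1.30 in mutants (log2 fold change -3.98). The magnesium channel gene Trpm6 fell by 1.81, the calcium-binding gene S100g fell by 2.997 and Pcbd1, which encodes a transcription cofactor, by 1.06. The calcium-sensing receptor Casr had a log2 fold change of -0.14 (edgeR adjusted p = 0.241), and of -0.45 with that term (adjusted p = 0.00686). Of 21 epithelial transcription factors and repressors, 11 fell (8 with that term) and 2 rose, with a median of -0.23. Hnf4a, which drives proximal tubule genes, fell by 1.30, Esrrb fell by 1.66 and Ovol1 fell by 1.28, whereas Elf3 rose by 0.82 and Esrrg by 0.25, the last not with the Y-linked term (edgeR adjusted p = 0.295). Grhl2, known as an activator of Cldn4 in epithelia, had 0.23 (edgeR adjusted p = 0.0649).

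The table lists another 15 genes under claudin symbols, of which 9 passed the filter. Of these 9, 2 rose, 2 fell and 5 did not pass. That is near the shares of all genes tested, 23.5% higher and 22.7% lower. Cldn14, which blocks the channel of Cldn16 and Cldn19 in the thick ascending limb, was low, at 5, 6, 15 and 13 counts in controls against 37, 15, 36 and 44 in mutants. The groups met at 15 counts, in Con1822 and Mut1453, and overlapped in CPM, at a log2 fold change of 1.5 (SE 0.39, edgeR adjusted p = 0.00795). Cldn5, the claudin of endothelium, fell by 0.30 together with 7 of 7 endothelial markers (median -0.43). With the Y-linked term Cldn5 did not pass (edgeR adjusted p = 0.105), and 3 of 7 endothelial markers fell. Cldn23 rose by 1.76 and Cldn22 fell by 1.16, both with at most 22 counts in any mouse. An exon of Wwc2 overlaps Cldn22 on the opposite strand by 995 bases and strandedness is not given, so the Cldn22 counts are uncertain. Cldn12 averaged 102 ± 13.3 and 96.9 ± 6.06 CPM and did not pass (log2 fold change -0.07). Nor did Cldn11 (0.30, or 0.54 with the Y-linked term and then passing at an edgeR adjusted p of 0.0292), Cldn15 (-0.21), Cldn9 and Cldn25 (0.07). The symbols Cldn25 and Cldn26 stand for Cldnd1 and Tmem114 in GENCODE M21. Exons of Cldn3 and Cldn19 overlap genes on the opposite strand, Wbscr25 by 40 and Gm12927 by 90 bases. No stretch of 100 bases or more at 95% identity was shared between the 10 claudins' transcripts and those of any other gene.

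The gene closest in pattern to each claudin, among 13259 compared, was sought by the root mean square difference over 8 mice of log2 CPM minus the control mean. For Cldn8 it was Scnn1b (0.0536), a subunit of the epithelial sodium channel, and for Cldn7 it was Stat3 (0.0516), a transcription factor of cytokine signals. For Cldn3 it was Gadd45a (0.106), a growth arrest gene, and for Cldn4 it was Abcc4 (0.130), an organic anion exporter. Cldn2 was closest to Smim24 (0.0765) and Mgat3 (0.0935), Cldn10 to Tmbim4 (0.0556) and Slc25a15 (0.0660), and Cldn16 to Car12 (0.0855), a carbonic anhydrase. For Cldn1 it was Chmp4c (0.0790), for Cldn6 it was 6030408B16Rik (0.0532) and for Cldn19 it was Polr2f (0.0621). These are descriptions over the same 8 mice, without a test.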

How the data were processed

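RNA-seq of renal cortex gave 1 library per mouse, 4 per group. Per the submitters' processing notes, the authors used HTSeq, Bowtie2, TopHat2 and DESeq2 with build mm10. Versions, annotation and strandedness were not given in the sources used here. Per the file headers, raw counts per gene were deposited, with FPKM values that the authors scaled to gene length and counted reads. Also there are the authors' deposited group means of normalised counts (signal), log2 fold changes and p-values, which were read as a check and not used for the results.

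Counts of 15597762 to 20417550 per library were tested with edgeR 4.0.16 (R 4.3.3): filterByExpr, TMM, glmQLFit and glmQLFTest, Benjamini-Hochberg over 15028 genes, threshold 0.05. The script was tested on simulated data. The SE is the log2 fold change over the square root of F. FPKM served for levels between genes, shares and ratios, which had no test. Python 3.11.15 with pandas 2.3.3, BLAST 2.17.0 and GENCODE M21 were also used.

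Members and gene lists were chosen with earlier results of these data known. Named genes were the 10 claudins, other tested claudins, up to 3 genes per list by adjusted p, list genes moving against their list, and the genes most alike; further list genes were named for their known role after their values were seen. Alternatives were DESeq2 1.42.0, limma-voom (limma 3.58.1), other factors, library sizes and filters, leaving out each mouse, terms for mouse-number range and Y-linked counts, and Mut1819 alone. Leaving out mice for shares and ratios, and the Y-linked term and Mut1819 alone for the gene lists, were chosen after seeing the data. Some listed genes are counted in their lists but not reported here by name.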

Additional observations from a re-analysis of the deposited data

How the results depend on the processing

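Cldn2, Cldn3, Cldn4, Cldn6, Cldn7, Cldn8, Cldn10 and Cldn16 kept their direction and passed under each of 17 alternatives. Their log2 fold changes ranged from -1.96 to -1.67 for Cldn2, -1.53 to -1.11 for Cldn16, -1.17 to -0.82 for Cldn10, -1.06 to -0.74 for Cldn8, -0.57 to -0.34 for Cldn6, 0.97 to 1.10 for Cldn7, 1.45 to 1.67 for Cldn3 and 1.99 to 2.15 for Cldn4. Cldn1 did not pass with a term for libraries with Y-linked counts (log2 fold change 0.274, edgeR adjusted p = 0.198) or for Mut1819 alone against the controls (0.273, adjusted p = 0.0906), and its adjusted p ranged from 0.000319 to 0.198. The count of all changed genes was 3967 and 3684 in these fits, against 6948, and 8 claudins passed in each. Both rest on the single mutant with few Y-linked counts, and the cause was not tested. Leaving out 1 mouse at a time gave 6085 to 7032 genes. For Cldn19 it gave 0.151 to 0.292, and without Mut1393 Cldn19 passed (0.292, adjusted p = 0.0196, range over alternatives 0.0196 to 0.655), so that 10 claudins did. Ratios to segment markers, shares and ratios between claudins kept their direction when each mouse was left out, though the share of Cldn6 came close to no difference (-0.773 to -0.0227 percentage points). No paired analysis was possible because the groups share no mouse number. Fitting the mouse-number range as a covariate left 9 claudins and 7245 genes changed. With 4 mice a group, small differences such as that of Cldn19 are limited by the spread between mice, not by counts.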
